A study of Mus musculus with 9 samples.

Results

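Regions that were open in the wild-type (WT) cells and lacked a peak in every *Atrx* knockout (KO) library were collected from peak lists of accessible chromatin. Peaks of all 9 libraries on chromosomes 1 to 19 were merged wherever they overlapped or touched, and a merged region was chosen by its peaks: 3 of 3 WT libraries with a peak and 0 of 6 KO libraries with a peak. There were 1548 such WT-only regions among 132893 merged regions (1.16%), or among 58717 regions with a peak in all 3 WT libraries (2.64%). Because presence of a peak picked these regions, that presence and the peak strengths from the same lists are given as a description without a test. No filter on low values was applied, and all 1548 regions enter every count below.

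The cells were C3H/10T1/2, a mouse embryonic line of fibroblast shape whose cells behave as mesenchymal progenitor cells (MPCs) with adipocyte, osteoblast, chondrocyte and myocyte fates. *Atrx* was disrupted by transient CRISPR-Cas9 with either of a pair of guides, and 1 single-cell clone from each guide was kept, named B10 and G7 in the labels. Which guide gave which clone was not given. The WT cells had received Cas9 without a guide. Each of the 3 lines had 3 Omni-ATAC-seq libraries, a method in which a transposase cuts accessible DNA and many cut fragments are called as a peak. A clone stands for its *Atrx* genotype and for everything else that its founder cell carried, and with 1 clone per guide these cannot be told apart. The WT control was likewise 1 line. A feature private to that line cannot be told apart from a difference in *Atrx* either.

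ATRX, the product of an X-linked gene, is an ATPase that remodels chromatin and deposits the histone variant H3.3 with its partner DAXX, mainly in heterochromatin and at telomeres. Most accessible regions away from start sites are enhancers or other elements bound by transcription factors, while those over start sites are promoters, which are often rich in CpG and accessible in many cell types. AP-1, a family of FOS and JUN dimers, is a common occupant of enhancers in fibroblast-like cells.

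A peak lay over 11 of 14 annotated coding start positions of *Atrx* in each of the 9 libraries, and since a guide cut need not remove a promoter this does not check the knockout. The libraries held between 74643 and 86650 peaks on chromosomes 1 to 19, with 76479 to 79534 in the WT libraries. Of the 58717 regions with 3 WT peaks, 88.7% to 91.9% had a peak in a given KO library. Sequencing depth is unknown because the lists hold peaks and no read counts, and a missing peak may be one just below the threshold of the peak caller, a q-value of 0.05. The libraries of replicate 1 stood apart from the others, with values given where libraries were left out of the choice.

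The sequences at the summits of the strongest WT-only regions are shown first, since the sequence was not used to choose the regions and differed between them. Peaks were ranked as percentiles of -log10 q within their own library, with 100 for the strongest peak, and regions were ordered by the lowest of their 3 WT ranks. The first 6 in that order with an AP-1 site within 50 bp of the summit are printed with the bases within 50 bp of the median WT summit, on the plus strand of GRCm38 (the same assembly as mm10), named by the nearest protein-coding start site. Capitals mark each match to the AP-1 site TGANTCA, read on both strands.
Aipl1, chr11:71996067-71996167: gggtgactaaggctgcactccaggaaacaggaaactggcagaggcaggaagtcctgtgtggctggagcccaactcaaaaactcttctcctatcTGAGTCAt
Tnr, chr1:159517886-159517986: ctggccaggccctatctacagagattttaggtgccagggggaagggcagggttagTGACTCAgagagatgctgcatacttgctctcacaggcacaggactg
Foxn2, chr17:88318724-88318824: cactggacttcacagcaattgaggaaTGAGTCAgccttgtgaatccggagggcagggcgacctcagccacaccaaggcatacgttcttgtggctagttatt
Eno4, chr19:58978814-58978914: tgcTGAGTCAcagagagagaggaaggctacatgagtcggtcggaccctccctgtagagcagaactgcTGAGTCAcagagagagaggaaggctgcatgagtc
Col22a1, chr15:72208150-72208250: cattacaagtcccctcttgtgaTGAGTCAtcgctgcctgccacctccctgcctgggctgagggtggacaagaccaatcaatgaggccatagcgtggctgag
Polr1d, chr5:147132077-147132177: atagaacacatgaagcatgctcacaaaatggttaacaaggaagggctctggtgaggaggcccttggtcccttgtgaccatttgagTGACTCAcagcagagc

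The *Aipl1* sequence held its match 46 bp to the right of the summit and the *Tnr* sequence 8 bp to the right. In the *Foxn2* and *Col22a1* sequences the match lay 21 and 25 bp to the left. The *Eno4* sequence held 2 identical matches, and the *Polr1d* match lay 38 bp to the right. None of these 6 regions was at a start site. Of them 3 were intergenic, and 3, at *Foxn2*, *Eno4* and *Col22a1*, lay in introns of other transcripts, outside the gene that names them.

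The first 4 regions in the same order that had no such site within 100 bp of the summit are printed next, with the same regions passed over. The regions without a site that follow in that order, at *Slamf9*, *Mef2c* and *Grip1*, were not at a start site. In the sequences of *Agrn*, *Oxr1* and *Rnls* the window lay in a region over a coding start site, and that of *Trim42* was intergenic, 94.0 kb from the nearest start.
Agrn, chr4:156197855-156197955: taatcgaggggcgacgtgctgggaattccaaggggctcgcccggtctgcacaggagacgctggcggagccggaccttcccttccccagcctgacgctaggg
Oxr1, chr15:41447272-41447372: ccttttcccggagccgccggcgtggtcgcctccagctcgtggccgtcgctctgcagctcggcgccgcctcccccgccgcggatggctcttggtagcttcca
Rnls, chr19:33391778-33391878: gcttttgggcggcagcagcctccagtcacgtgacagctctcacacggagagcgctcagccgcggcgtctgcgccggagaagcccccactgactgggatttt
Trim42, chr9:97275587-97275687: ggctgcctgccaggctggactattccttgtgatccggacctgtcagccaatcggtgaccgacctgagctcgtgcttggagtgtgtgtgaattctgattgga

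Most WT-only regions were weak peaks, and a few were among the strongest in the genome. Their median rank was 28.7 in WT replicate 1, 30.3 in replicate 2 and 28.8 in replicate 3, against 63.4, 63.0 and 62.2 for the 57169 other regions with 3 WT peaks. The median fold enrichment of a peak over its background, as the authors' caller gave it, was 5.86, 6.40 and 6.21 in the WT-only regions and 10.2, 10.7 and 10.4 in the others. The merged WT-only regions were also narrower, with a median of 492.5 bp against 818 bp. The 3 WT libraries placed a WT-only region at like strength, with a median SD of 7.17 percentile points. Their summits lay within a median of 52 bp of each other, a wider spread than the 38 bp of the other regions with 3 WT peaks.

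The share of regions called WT only fell with strength. Of regions whose mean WT rank was at most 20, 12.6% were WT only, and the share was 6.12%, 2.32%, 0.599% and 0.0988% in the next 4 steps of 20 points. In 139 regions (8.98%) the rank was over 50 in all 3 WT libraries, and in 12 it was over 80. At the other end, 22 regions (1.42%) had a -log10 q under 2 in at least 1 WT library. On either side of the rule, the 948 regions with 3 WT peaks and a single KO peak had a median mean WT rank of 29.3, against 28.5 for the WT-only regions, and the lone KO peak had a median rank of 13.2. The 2606 regions with 2 WT peaks and no KO peak had a median mean rank of 16.2, and WT replicate 1 was the missing library in 1575 of them. Without WT replicate 1 the rule gave 3133 regions, and without replicate 1 of every line it gave 3610.

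**Figure D1:**
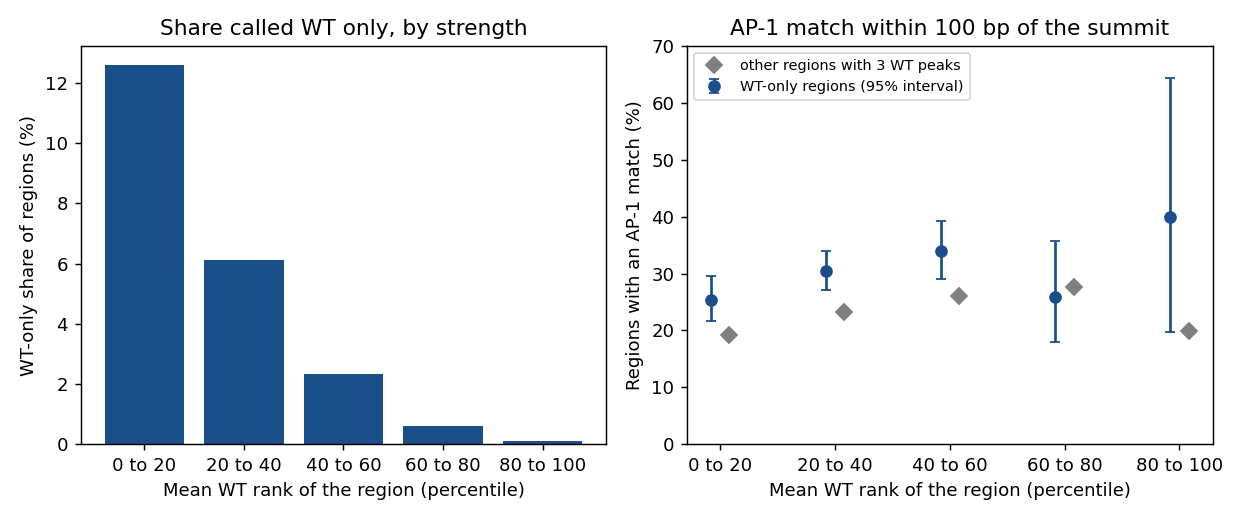
Left, share of regions with 3 WT peaks that were WT only (y axis, %) in 5 steps of mean WT rank (x axis, percentile), as bars. Right, share with an AP-1 match within 100 bp of the summit (y axis, %) in WT-only regions (circles, bars are 95% Wilson intervals) and in other regions with 3 WT peaks (diamonds); the share called falls from 12.6% to 0.0988%, and the circles lie above the diamonds in each step except 60 to 80.

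The 3 strongest WT-only regions each covered a coding start site. The region over the *Agrn* start site (chr4:156197082-156198224) had ranks of 96.7, 91.6 and 95.3 in WT replicates 1, 2 and 3. *Agrn* encodes agrin, a proteoglycan that clusters acetylcholine receptors at the neuromuscular junction. The *Oxr1* region, over 1 of 11 coding start positions of this oxidation resistance gene, had ranks of 89.5, 91.2 and 91.6. At *Rnls*, which encodes the flavoprotein renalase, the ranks were 93.0, 89.9 and 87.2, and both of its coding start positions lay in the region. These 3 windows had a GC content of 65.7% to 69.7%, and the nearest peak of any KO library was 2.38 kb away at *Agrn*, 7.37 kb at *Oxr1* and 10.8 kb at *Rnls*. Their ranks were high in each of the 3 WT libraries.

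Further start sites among the 20 strongest regions were those of *Rgs7*, a regulator of G-protein signalling, with ranks of 82.6, 80.2 and 81.7, and of *Ankef1*, with ranks of 77.9, 79.6 and 75. The *Xirp2* region was within 3 kb of an annotated transcript start but 119.1 kb from the nearest coding one, with ranks of 83.6, 77.1 and 79.1. *Xirp2* encodes an actin-binding repeat protein of muscle.

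Distal regions made up the rest of the 20. The *Aipl1* region had ranks of 86.9, 94.0 and 92.1 and lay 41.1 kb from the start site of this gene, which encodes a photoreceptor chaperone. The *Tnr* region was 5.49 kb upstream of a start site of tenascin-R, a matrix glycoprotein of the nervous system, with ranks of 84.9, 85.2 and 84.5. At *Trim42* the ranks were 88.5, 88.4 and 84.4. The region 4.44 kb upstream of *Ccnc*, the gene of cyclin C, had ranks of 83.7, 89.8 and 87.5 but a fold enrichment of only 7.22 to 8.89, the lowest of the 20.

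The *Slamf9* region had ranks of 85.2, 85.5 and 81.8 and lay 6.39 kb upstream of the start site. A region past the end of *Mef2c*, a transcription factor gene of muscle and other lineages, had ranks of 84.1, 82.3 and 81.3. It lay 91.9 kb from the nearest coding start of *Mef2c*, in an intron of another transcript. The values at *Foxn2*, a forkhead factor gene, were 82.4, 81.2 and 83.3, and those at *Grip1*, which encodes a glutamate receptor-interacting scaffold protein, were 84.9, 80.2 and 80.6. Each of these 4 regions held close ranks, within 5 points over the 3 WT libraries.

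At *Cbln1*, the gene of the synaptic organiser cerebellin, the ranks were 82.5, 78.8 and 83.7, and no KO peak lay within 121.9 kb. At *Asic1*, an acid-sensing ion channel gene, they were 81.1, 80.0 and 78.2. The *Eno4* region had 77.9, 80.2 and 82.8, and the *Vmn2r33* region, beside a vomeronasal receptor gene of a large family of like copies, had 80.2, 76.8 and 77.4 with no KO peak within 166.0 kb. The *Col22a1* region, 173.6 kb upstream of a collagen gene of tissue junctions, had 75.8, 86.4 and 86.6. The *Brinp2* region had 77.5, 82.7 and 75.7. *Col22a1* had the widest spread of the 20 regions, with WT replicate 1 below the other two.

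**Figure D2:**
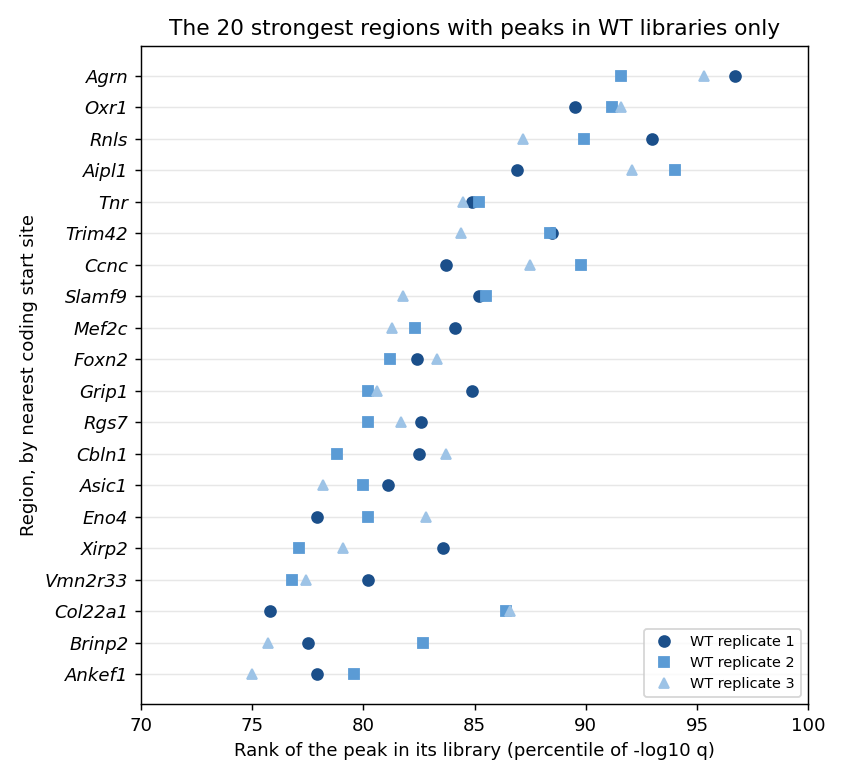
Rank of the peak in its own library (x axis, percentile of -log10 q) for the 20 WT-only regions with the highest lowest rank (y axis, named by the nearest coding start site), with a circle, square and triangle for WT replicates 1, 2 and 3. All 60 ranks lie between 75 and 96.7, and the x axis starts at 70.

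The ranks above come from the lists that chose the regions, so the choice was repeated with 1 replicate number left out. Regions were chosen by peaks in both WT and none of 4 KO libraries of 2 replicate numbers, and the libraries of the remaining number were then read. With replicate 1 left out, 1898 of 3596 regions so chosen (52.8%, 95% Wilson interval 51.1 to 54.4) had a peak in WT replicate 1, against 291 (8.09%) in B10 replicate 1 and 268 (7.45%) in G7 replicate 1. With replicate 2 left out, the shares of 2685 regions were 77.8% (76.2 to 79.3) in WT, 14.0% in B10 and 15.5% in G7. With replicate 3 left out, the shares of 2496 regions were 73.9% (72.1 to 75.6), 8.01% and 10.1%. In each round the WT library was above both KO libraries of the same number.

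The same left-out libraries held a peak in 88.1%, 95.3% and 93.9% of all regions with peaks in both other WT libraries for WT, and in 82.0% to 90.2% for B10 and G7. Presence of the chosen regions was therefore lower than that of all such regions in every library left out, by 17.5 to 35.3 percentage points in WT and by 73.8 to 80.2 in the clones. A KO peak found in a chosen region was weak, with a median rank of 11.5 to 16.5. The left-out WT peaks in chosen regions were themselves of low rank, with a median of 28.8 to 30.9. The intervals cover counting error only, regions are not independent replicates, and the 3 rounds share libraries, so no test was made.

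Replicate 1 differed from the others in the reverse choice too. Of 2931 regions chosen by 4 KO peaks and no WT peak of replicates 2 and 3, 47.9% had a peak in WT replicate 1. With replicates 2 and 3 left out instead, 19.7% and 15.5% of the regions so chosen had a peak in the WT library.

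Most WT-only regions were away from promoters. A transcript start was within 3 kb of 412 of them (26.6%, 24.5 to 28.9), against 37.4% of the other regions. Introns held 468 (30.2%, against 27.9%) and intergenic DNA 611 (39.5%, against 29.7%). Untranslated parts held few, 1 in a 5′ UTR and 19 in a 3′ UTR, and 37 were in other exons. The median distance to a coding start was 26.7 kb against 16.3 kb, and 300 regions (19.4%) were over 100 kb away, against 13.3%. Strength moved with this difference: in the steps of mean WT rank from 0 to 20 and from 20 to 40, which held 1115 of the 1548, promoters made up 24.7% and 24.0% of WT-only regions and 24.3% and 23.9% of the others. In the step from 40 to 60 the shares were 31.9% and 25.1%, and among regions with ranks of 80 to 100 they were 26.7% of 15 WT-only regions and 66.0% of the others.

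A coding start site lay inside 109 WT-only regions (7.04%, 5.87 to 8.43), against 18.6% of the other regions with 3 WT peaks. In regions with 6 KO and 0 WT peaks the share was 7.35%. These shares were not matched for strength. The 109 regions made 110 pairs with 108 genes. In 48 pairs every annotated coding start position of the gene lay in the region, and 32 of these genes had a single position. In 13 pairs another start position of the gene lay in a region open in all 9 libraries, and *Oxr1*, *Kcnab2*, *Fgfr2*, *Dixdc1* and *Sorbs2* were among them. In the other 49 pairs the gene had further positions, and none was open in all 9. The genes described next were picked among these pairs after their values were seen and not by rank alone, so they stand as examples.

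*Jup*, the gene of plakoglobin, had ranks of 75.4, 69.4 and 70.7 over its only coding start. *Cgnl1*, which encodes paracingulin of tight junctions, had 82.1, 74.5 and 74.5, and *Cgn*, the cingulin gene, had 57.6, 57.8 and 61.9. *Eya1*, a transcriptional co-activator and phosphatase of organ development, had 72.3, 75 and 72.8. *Fgfr2*, a fibroblast growth factor receptor gene, had 74.1, 67.1 and 66.0, and a further start position of it was open in all 9 libraries. *Gli2*, an effector of Hedgehog signalling, had 64.4, 60.4 and 64.8. *Plagl1*, a zinc finger gene that is imprinted, had 79.5, 74.3 and 75.7, and *Kcnh2*, a potassium channel gene, had 75.1, 72.5 and 78.1. In each of these regions the ranks were within 9 points across the WT libraries. *Eya1* and *Kcnh2* each had a second, weaker region over a start site, with a lowest rank of 23.4 at *Eya1* and 27.6 at *Kcnh2*.

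Transcription factor motifs were searched as exact letters on both strands within 100 bp of the median summit. An AP-1 site, TGANTCA, was in 458 of 1548 WT-only regions (29.6%, 27.4 to 31.9), in 23.9% (23.6 to 24.3) of other regions with 3 WT peaks and in 20.3% of all merged regions. In the first 3 steps of mean WT rank the shares were 25.4%, 30.4% and 34.0% in WT-only regions and 19.2%, 23.3% and 26.0% in the others. In the step from 60 to 80 the order turned, with 25.8% (17.9 to 35.8) of 89 WT-only regions against 27.6%. Outside promoters the share was 33.6% against 29.5%, and at promoters 18.4% against 14.7%. WT-only regions with a match had a median mean rank of 30.2 and those without had 27.7. No set test was run on these shares.

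Matches clustered at the summit. In WT-only regions the 25 bp at the summit held 7.43 matches per 100 regions, against 5.95 in other regions with 3 WT peaks, and at 150 bp to the left and right the numbers were 0.388 and 1.49 against 0.878 and 0.834. The reverse set, the 1021 regions with 6 KO peaks and no WT peak (1.96% of regions with 6 KO peaks), had 3.53 matches per 100 regions at the summit. An AP-1 site within 100 bp was in 15.5% (13.4 to 17.8) of that set, about the level of G7-only regions (14.8%) and below B10-only regions (18.6%). The B10-only regions were 1924, or 3.03% of regions with 3 B10 peaks, and the G7-only regions 405, or 0.689% of regions with 3 G7 peaks.

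**Figure D3:**
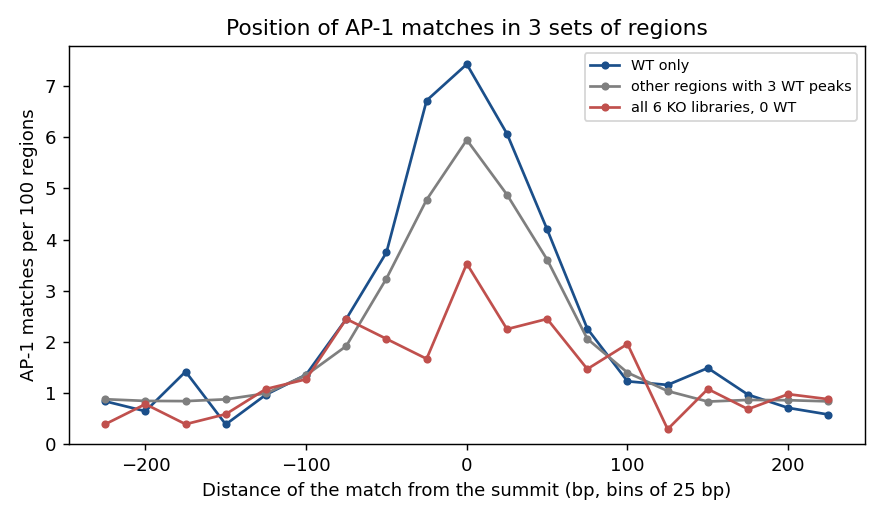
AP-1 matches per 100 regions (y axis) by distance from the median summit (x axis, bp, bins of 25 bp) in WT-only regions, other regions with 3 WT peaks and regions with 6 KO and 0 WT peaks. The WT-only line reaches 7.43 at the summit, above 5.95 and 3.53, and the lines meet beyond 100 bp.

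The other motifs are given for WT-only regions, other regions with 3 WT peaks, the reverse set and all merged regions, in that order. TEAD sites, GGAATG, which bind the end points of the Hippo pathway, were in 14.1% (12.4 to 15.9), 15.4%, 22.5% and 15.6%. RUNX sites, TGTGGTT, were in 6.91%, 8.26%, 9.99% and 8.75%. SOX sites, CCATTGT, were in 2.52%, 2.88%, 6.46% and 3.53%, and NFI sites, TTGGCA, in 13.4%, 15.8%, 18.8% and 16.7%. For these 4 motifs the WT-only share was the lowest of the 4 sets.

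Motifs that hold a CpG were searched as well. SP/KLF sites, GGGCGGG, were in 7.43% of WT-only regions, 11.1% of other regions with 3 WT peaks, 4.90% of the reverse set and 6.16% of all regions. ETS sites, CCGGAAG, were in 3.81%, 4.29%, 0.979% and 2.37%. NRF1 sites, GCATGCGC, were in 0.323%, 1.09%, 0.490% and 0.602%. The CRE site, TGACGTCA, was in 0.517%, 0.966%, 0.686% and 0.603%, and the E-box CACGTG in 3.17%, 4.20%, 3.33% and 3.44%. For NRF1, CRE and CACGTG the WT-only share was the lowest of the 4 sets, and for SP/KLF and ETS that of the reverse set was.

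The shares of the remaining motifs were as follows. The E-box CAGCTG was in 15.7% of WT-only regions, 15.1% of other regions with 3 WT peaks, 10.7% of the reverse set and 14.7% of all regions. FOX sites, TGTTTAC, were in 3.04%, 2.62%, 3.92% and 2.81%, C/EBP sites, TTGCNNCAA, in 1.68%, 1.53%, 1.37% and 1.66%, and MEF2 sites, TATTTATA, in 0.969%, 0.782%, 1.08% and 0.977%. NF-Y sites, CCAATNAG, were in 4.65%, 3.97%, 3.72% and 3.30%, STAT sites, TTCCNGGAA, in 1.29%, 1.06%, 1.27% and 0.999%, and NF-kB sites, GGGANTTCC, in 2.00% (1.41 to 2.83), 1.34%, 0.490% and 1.12%. A tracts of 8 bases, AAAAAAAA, were in 3.88%, 4.26%, 5.39% and 5.01%. Runs of G that could fold into a quadruplex, sought as 4 runs of at least 3 G with gaps of 1 to 7 bases, were in 5.49% (4.46 to 6.74), 6.47%, 4.31% and 4.27%. The order of the first 2 sets turned when strength was matched. In the first 4 steps of mean WT rank the shares were 5.84%, 5.22%, 5.47% and 5.62% in WT-only regions. The other regions with 3 WT peaks had 3.71%, 3.74%, 3.64% and 5.57%. In the step from 80 to 100 it was 6.67% of 15 WT-only regions against 12.3%. A match shows letters and not a bound factor.

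Pooled over strength, base composition was close to that of other regions with 3 WT peaks. The median GC content of the 201 bp at the summit was 50.7% in WT-only regions, 51.2% in other regions with 3 WT peaks and 46.8% in the reverse set. In the first 4 steps of mean WT rank the median GC content was 50.2%, 49.8%, 51.7% and 53.7% in WT-only regions. The other regions with 3 WT peaks had 48.3%, 48.3%, 48.8% and 50.7%. From 80 to 100 it was 56.7% against 58.7%. The mean number of CpG, pooled, was 4.18 in WT-only regions, 5.56 in the other regions and 3.54 in the reverse set. Sequence that is mostly repeat-masked was in 73 WT-only regions (4.72%, 3.77 to 5.89), 3.13% of the other regions with 3 WT peaks and 6.06% of all merged regions. The order of the first 2 sets depended on strength. From 0 to 20 and from 20 to 40 the shares were 3.82% and 4.63% in WT-only regions against 6.14% and 5.18%. In the later steps they were 5.78%, 5.62% and 6.67% against 4.15%, 2.55% and 0.771%.

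The nearest coding start sites belonged to 1242 genes, of which 1035 had a single WT-only region. *Tnr* had the most, with 9, all within 82.4 kb of a start site of the gene. Their lowest WT ranks ran from 3.14 to 84.5, 6 lay in introns, and 5 held an AP-1 match. Of the 22 regions with 3 WT peaks assigned to *Tnr*, 3 were open in all 9 libraries. *Brinp2*, a gene of the nervous system whose regions lie on the same stretch of chromosome 1, had 5, each with an AP-1 match, of 6 regions with 3 WT peaks. None of the regions assigned to *Brinp2* was open in all 9.

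*Kirrel3*, a member of the immunoglobulin superfamily, had 6 of 39 regions with 3 WT peaks, 16 of which were open in all 9 libraries. *Cadm2*, a synaptic adhesion gene, had 6 of 14. *Pax5*, the B-cell transcription factor, had 5 of 8, none with a lowest rank over 12.8 and none with an AP-1 match. *Chd6*, a chromatin remodeller gene, had 5 of 13, at 30.1 to 461.3 kb. *Gm826* had 5 of 5, and *3100002H09Rik*, close to *Pou3f1*, had 5 of 6 with lowest ranks from 2.30 to 73.4.

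*G530012D18Rik* had 7 of 8 regions and *C130026I21Rik* 5 of 10, and none of either was open in all 9 libraries. Both lie at 85 Mb of chromosome 1 among the genes *Sp110*, *Sp140* and *Sp100*, nuclear body genes with many like copies there, so the placement of reads between copies is uncertain. In a stretch of 198.5 kb (chr1:85451751-85650237), 11 of 14 regions with 3 WT peaks were WT only, 7 of the 20 merged regions had a peak in some KO library, and none had one in all 6. Among the start sites there, that of *Sp110* had ranks of 60.4, 53.2 and 59.3 and that of *Sp100* 44.3, 53.9 and 59.0.

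Some WT-only regions lay near each other. When regions less than 50 kb apart were joined into chains, 392 of 1548 (25.3%) had another WT-only region in their chain, against 16.5% of regions with 6 KO and 0 WT peaks, 31.2% of B10-only and 6.91% of G7-only regions. These shares rise with the number of regions in a set, and no test was made. In the chain of 94.2 kb beside *Pou3f1*, a POU factor gene, all 7 regions with 3 WT peaks were WT only, and 1 of 11 merged regions had any KO peak. At *Brinp2* (48.9 kb), *Gm826* (33.1 kb) and *Tox2* and *Jph2* (39.6 kb) all 4 regions with 3 WT peaks were WT only and no merged region had a KO peak. In other chains neighbours had KO peaks: at *Ephx2*, *Chrna2* and *Ptk2b* 6 of 11 regions with 3 WT peaks were WT only and 4 were open in all 9, and at *Dnaic1*, *Enho*, *Cntfr* and *Il11ra1* 5 of 11 were WT only and 4 open in all 9.

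Chromosomes differed in the share that was WT only. Chromosome 5 had the highest, 167 of 3479 regions with 3 WT peaks (4.80%, 4.14 to 5.56), and chromosome 6 the lowest, 42 of 3140 (1.34%, 0.991 to 1.80), around the 2.64% of all chromosomes. Shared regions moved with this share on some chromosomes and not on others. Over regions open in all 9 libraries, the median rank difference from WT on chromosome 5 was -2.33 points in B10 and -2.64 in G7, and on chromosome 6 it was 5.66 in B10 and 1.43 in G7. On chromosome 2 (3.29%) it was -0.255 points in B10 and -3.93 in G7, and on chromosome 14 (3.40%) -1.86 and -2.18. At lower shares, chromosome 8 (2.10%) had 3.85 and 4.15, and chromosome 13 (2.09%) had 4.90 and 0.814. Other chromosomes showed no such order. Chromosome 18 (2.80%) had 2.89 and 1.61, chromosome 4 (2.85%) 0.106 and 0.528, and at low shares chromosome 3 (1.92%) had 0.225 and 0.0309 and chromosome 10 (1.68%) 0.501 and 0.295. A gain or loss of a chromosome or segment in a clone would alter peak ranks along it, and from peak lists it cannot be told apart from a change in accessibility.

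**Figure D4:**
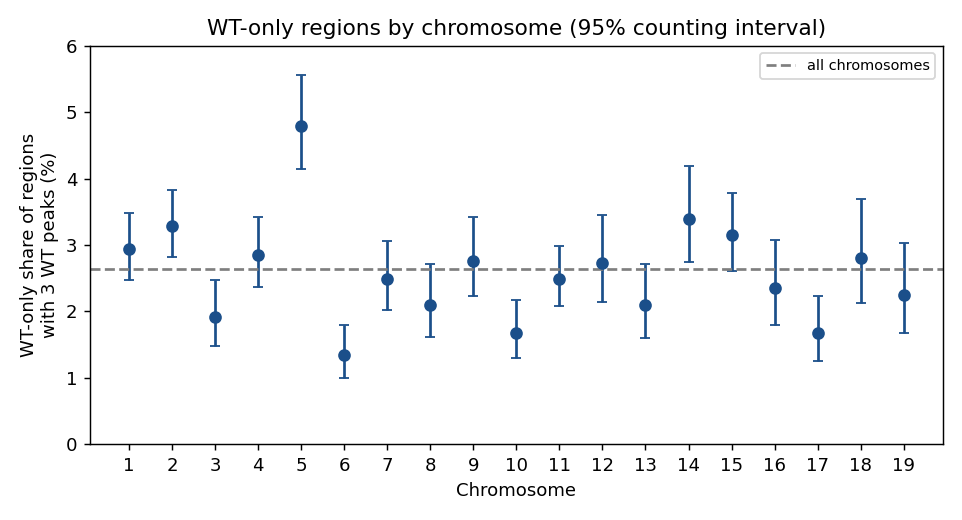
Share of regions with 3 WT peaks that were WT only (y axis, %) on each of chromosomes 1 to 19 (x axis), with 95% Wilson intervals that cover counting error only, and the share over all chromosomes, 2.64%, as a dashed line. Chromosome 5 stands highest at 4.80% and chromosome 6 lowest at 1.34%.

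Regions that were open in every library, and so were not used by the rule, were compared near and away from WT-only regions. Within 50 kb of a WT-only region there were 3207 of the 46449 regions open in all 9. Their median rank exceeded that of all shared regions by 2.19, 1.71 and 2.12 points in WT replicates 1, 2 and 3. In the clones the same difference was -1.07, -1.80 and -1.79 points in B10 and -0.112, -0.906 and -1.04 points in G7. The 3 WT values did not overlap those of either clone.

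The mean was 2.00 ± 0.256 points in WT, -1.55 ± 0.421 in B10 and -0.685 ± 0.501 in G7 (SD, n = 3 each). The difference was -3.56 points for B10 and -2.69 points for G7, each with an exact two-sided permutation p of 0.1, adjusted p = 0.1 over both clones by Benjamini-Hochberg. That is the smallest p that 3 against 3 libraries can give, so the design cannot pass 0.05. With each rank taken relative to the median of its chromosome the differences were -2.89 and -2.41. Ranked by fold enrichment they were -1.31 (exact p = 0.1) and -0.59 (exact p = 0.4), and without WT replicate 1 they were -2.31 and -1.73. The WT-only regions were chosen by the WT and KO labels of these same libraries, and the permutation kept that choice. The p-values are therefore not independent of the rule, and the direction of the shift cannot be separated from the choice. Both comparisons also share the WT libraries.

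The difference was not even along the distance. From 5 to 20 kb of a WT-only region, 1003 shared regions had a median rank change of -1.31 points in B10 and -1.74 in G7, and 49.6% were lower in both clones, against 33.6% of all shared regions. From 20 to 50 kb the changes were -0.274 and -0.783, and beyond 200 kb they were 0.970 and 0.0640. In the 249 shared regions within 5 kb the direction turned, with 1.45 points in B10 and 0.716 in G7, and 28.5% were lower in both. Of the WT-only regions, 145 (9.37%) had a KO peak within 1 kb and 565 (36.5%) within 5 kb, and the median distance to the nearest one was 8467 bp.

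**Figure D5:**
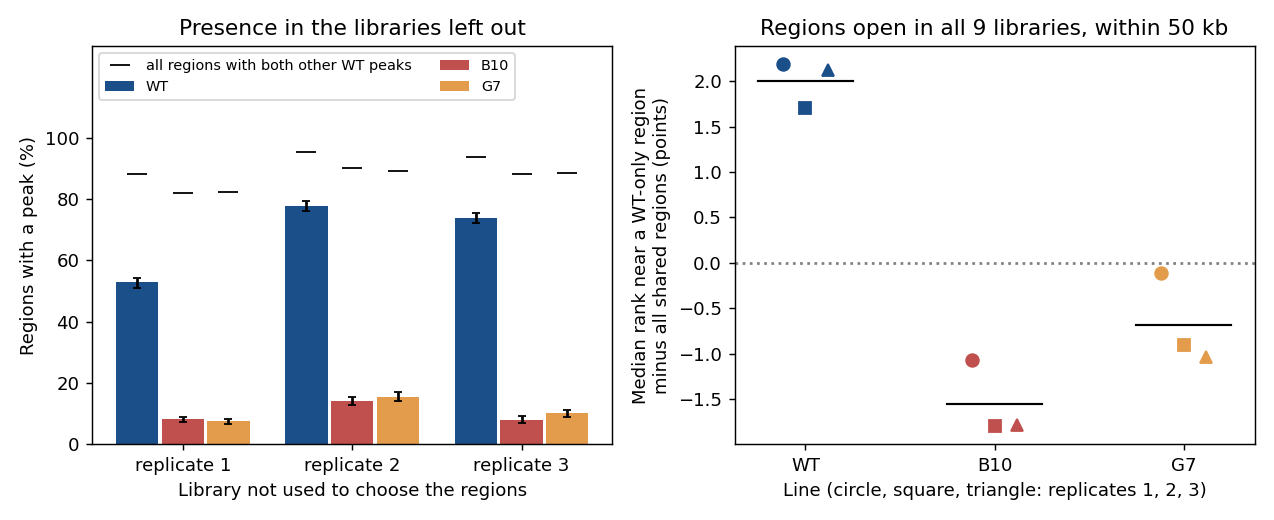
Left, share of regions with a peak (y axis, %) in the WT, B10 and G7 libraries of the replicate number that was not used to choose them (x axis), with 95% Wilson intervals, and black dashes for all regions with peaks in both other WT libraries; WT bars are 52.8% to 77.8% and clone bars 7.45% to 15.5%. Right, median rank of shared regions within 50 kb of a WT-only region minus that of all shared regions (y axis, percentile points) per library, with line means as bars; the WT values, 1.71 to 2.19, lie above all clone values.

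Gene lists of the mesenchymal lineages and of signalling held few WT-only regions, each read beside the 2.64% of all regions with 3 WT peaks. A region was counted for the gene with the nearest coding start, at any distance, and an intronic region can lie in another transcript. Among markers of mesenchymal progenitors and fibroblasts, 7 of 28 genes had 8 WT-only regions (2.46%, 1.25 to 4.78), led by a region near *Vcam1*, a cell adhesion receptor gene, with ranks of 60.0, 69.6 and 71.9, and an intronic one assigned to *Thy1*, the surface marker CD90, with 50.9, 49.7 and 51.5. Of the 325 regions of this list with 3 WT peaks, 246 were open in all 9 libraries. For muscle the count was 5 of 81 regions (6.17%, 2.67 to 13.6), 3 of them assigned to *Mef2c*. Of these, a region by a transcript start and 77.6 kb downstream of the nearest coding start had ranks of 70.3, 67.7 and 64.3.

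Adipocyte genes had 4 of 131 (3.05%, 1.19 to 7.59), and the strongest 2 were intronic. The region at *Ebf2*, an early B-cell factor of adipose precursors, had 18.6, 20.8 and 15.8. The region assigned to *Lep*, the leptin gene, lay 72.8 kb upstream of the nearest coding start and had 20.3, 37.7 and 14.3. Cartilage genes had 3 of 247 (1.21%, 0.414 to 3.51). *Trps1*, a GATA-type repressor of the growth plate, had 62.3, 62.4 and 68.5, and *Prg4*, the lubricin gene, had 64.0, 49.3 and 56.6. Bone genes had 1 of 107 (0.935%, 0.165 to 5.10), an intronic region of *Runx2*, the master factor of osteoblasts, with 0.0333, 19.5 and 17.1, which is at the threshold of the caller in WT replicate 1. Matrix genes had 4 of 301 (1.33%, 0.518 to 3.37), with *Col6a2* at 44.6, 44.8 and 45.3. The region assigned to *Dcn*, the decorin gene, lay 232.0 kb upstream and had 14.6, 38.1 and 35.8.

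Genes of the AP-1 factors themselves had 3 of 108 regions (2.78%, 0.949 to 7.85). The region assigned to *Jun*, 106.4 kb upstream, had 69.0, 36.1 and 33.1, with WT replicate 1 well above the others. The *Maff* region had 38.2, 44.2 and 17.2. Hippo genes had 2 of 168 (1.19%, 0.327 to 4.24), both at the MST kinase genes, *Stk4* with 25.1, 17.1 and 30.2 and *Stk3* with 29.9, 22.3 and 9.64. TGF-beta and BMP genes had 5 of 395 (1.27%, 0.542 to 2.93). The region assigned to *Id2*, an inhibitor of bHLH factors, lay 92.1 kb upstream and had 20.2, 24.3 and 21.6. The region assigned to *Smad2*, a receptor-regulated signal transducer, lay 193.0 kb downstream of the start and had 26.3, 35.1 and 18.2. Wnt genes had 4 of 296 (1.35%, 0.527 to 3.42). Of these, *Axin2*, a feedback inhibitor of Wnt signalling, had a WT-only region over 2 of its 5 coding start positions, with 66.2, 62.5 and 68.9 and no KO peak within 73.3 kb, and *Tcf7l2*, a nuclear effector, had 48.1, 32.4 and 41.1.

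*Hox* genes had 4 of 45 regions (8.89%, 3.51 to 20.7), the highest share of the 15 lists, with *Hoxb13* at 32.1, 40.5 and 42.9 and *Hoxc8* at 29.9, 34.1 and 21.2. Axon guidance and adhesion genes had 15 of 384 (3.91%, 2.38 to 6.34), 4 of them at *Robo2*. The region assigned to *Cdh6*, 1314.6 kb upstream of its nearest coding start, had 69.4, 71.1 and 62.4. The region assigned to *Cdh2*, the N-cadherin gene, lay 765.9 kb upstream of the nearest coding start and had 61.2, 58.2 and 48.1. Interferon genes had 2 of 66 (3.03%, 0.835 to 10.4), both weak, with *Oasl2* at 6.89, 3.14 and 8.25 and *Irf8* at 30.9, 12 and 1.34. Cell cycle inhibitor and p53 genes had 1 of 84 (1.19%, 0.210 to 6.44), assigned to *Pmaip1*, the NOXA gene, at 48.2, 49.7 and 40.4. The partners of ATRX and heterochromatin factors had 0 of 65 regions, which allows a share of up to 5.58% by the Wilson interval. The interval lay above 2.64% for the *Hox* list, and for the muscle list its lower bound of 2.67% was just above that share. For the other 13 of the 15 lists the interval held that share. The lists were not matched for strength, although weak regions were more often WT only, and the median lowest rank of the 4 *Hox* regions was 15.8. No allowance was made for reading 15 intervals, and no test of the lists was run. The intervals cover counting error only, and regions at the same gene are not independent.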

How the data were processed

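Peaks of Omni-ATAC-seq libraries were compared in 3 WT, 3 B10 and 3 G7 libraries, placed in their lines by their labels. The authors cleaned paired-end reads with Rfastp, aligned them to mm10 with Rsubread and called peaks per replicate with MACS2 in paired-end mode, whose version was not given in the sources used here. The deposited lists give for each peak its bounds and summit, a display score, a fold enrichment (a ratio of signal to background), a -log10 p-value and a -log10 q-value, all computed by the authors' caller. The score and the p-value were not used. Peak names mention an input control that the methods do not describe, and use of a blacklist for these lists is unclear. The lists carry no counts, so the count model of the study could not be run and depth is unknown.

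Peaks on chromosomes 1 to 19 ended within the chromosome lengths of GRCm38. Ranks are percentiles of -log10 q within a library, and a region took the strongest peak of each library. Annotation was GENCODE M21, with a promoter within 3 kb of any transcript start, then UTR, exon, intron and intergenic. Sequences were read from the RefSeq copy of GRCm38. Shares carry 95% Wilson intervals. The rank shift of neighbours was tested with an exact two-sided permutation test over libraries and adjusted over 2 clones. Python 3.11.15, NumPy 2.4.6, pandas 2.3.3 and SciPy 1.17.1 were used, and the merging, the rule and the rank shift were tested on simulated data. The labels do not say that replicates were separate cultures, so the p-values measure the spread between these libraries. Same-numbered libraries deviated together from their line means over shared regions, with correlations of 0.315 to 0.665, so the numbers were taken to pair the libraries, and sign flips served as the test with a replicate block.

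The regions, gene lists and motifs were chosen with earlier results of these data known. Genes were named by 3 rules: the 20 regions whose lowest WT rank was highest, the 10 genes with most regions (ties by genome order), and up to 2 regions per gene list by lowest rank. *Jup*, *Cgnl1*, *Cgn*, *Eya1*, *Fgfr2*, *Gli2*, *Plagl1*, *Kcnh2* and other start-site or chain genes outside these rules were named after their values were seen. All 15 lists are given. Alternatives were equal numbers of peaks per library, merging across gaps of 100 bp, a stricter q-value, other windows and distances, ranks by fold enrichment, and each library left out. Taking ranks relative to the chromosome, and equal peak numbers for the neighbours, were added after the data were seen.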

Additional observations from a re-analysis of the deposited data

How the results depend on the processing

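The number of WT-only regions was 1548. With 74643 peaks per library it was 1636, and 1365 of the 1548 (88.2%) were still called. A -log10 q of at least 3 for WT peaks gave 1422, merging across gaps of 100 bp gave 1547, and chromosomes X and Y added 38 and 1 regions. Leaving out 1 library, or 1 replicate number of every line, gave 1659 to 3610 regions, with 3133 without WT replicate 1 alone and 3610, 2696 and 2503 without replicate 1, 2 and 3 of every line. By construction fewer libraries then have to meet the rule. The promoter share, 26.6%, was 16.2% within 1 kb and 23.0% to 26.7% with libraries left out, with 23.4% without replicate 1 of every line. The AP-1 share, 29.6%, was 21.6% within 50 bp and 37.1% within 250 bp of the summit, where other regions with 3 WT peaks had 17.2% and 31.2%, and 25.3% to 37.9% with libraries left out, highest without WT replicate 1, with 35.4% and 25.8% without replicate 1 and 3 of every line. The cause of that dependence was not tested.

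The rank shift of neighbours kept its direction in all 18 alternatives for each clone, with exact p of 0.1 to 0.333 for B10 and 0.1 to 0.4 for G7, none of which this design could bring under 0.05. In every alternative the WT-only regions were chosen by the WT and KO labels of these libraries. The kept direction therefore cannot be separated from that choice. The shift ran from -3.83 to -2.31 for B10 and from -2.77 to -1.73 for G7 with libraries left out. With the replicate block the paired differences were -3.56 and -2.69, each with an exact sign-flip p of 0.25, the smallest that 3 pairs allow, and the block changed no call. Depth limits the absence of a peak, since a weak KO signal under the threshold is not in the lists.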
